A study of Mus musculus with 2 samples.

Results

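Antisense RNA genes are annotated on the strand opposite another gene, and 81 of the 2948 genes whose GENCODE transcripts are all of type antisense were expressed in this muscle. They were chosen by measured level, as all genes of that type with 1 TPM or more (transcript abundance per length, on a scale that sums to the same total in each library) in the gene tables of both libraries, with Tsix left out of the rule. The 81 genes are 2.75% of antisense genes and are drawn from 55536 genes in all, so that their levels are a description and carry no test. The study sequenced total RNA of the gastrocnemius, a calf muscle of mainly fast fibres, from 2 female B6CASTF1/J mice aged 2 months, an F1 cross between B6 and CAST. The input was 300 ng of RNA per library, to which ERCC spike-in RNA was added, and the libraries are the biological replicates 1 and 2 of 1 group, called animal 1 and animal 2 here. No treatment, transgene or deletion is named in the labels, and there was no contrast of conditions. The labels give both libraries the same donor record, and should it stand for 1 mouse, the SDs measure spread within that mouse.

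Antisense RNAs are noncoding transcripts made from the strand opposite a coding gene. Some start next to a coding promoter and run away from it, some lie within an intron, and some run through coding exons, where their RNA is complementary to the mRNA. A few have described roles: Airn silences Igf2r, the receptor for insulin-like growth factor 2, on the paternal chromosome, and others serve mainly as the precursor of small RNAs. For most of the genes below no function is given here.

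Complementarity to a coding exon is shown for 2 genes, one of them the highest of the 81 by mean TPM, whose exons run across the end of a coding exon on the other strand. Each line gives 60 bases of the antisense RNA, 5′ to 3′, with the 40 bases that face the coding exon in capitals. The 20 bases in lower case face the intron of the sense gene and end in ac, the complement of the gt that opens that intron, so that the antisense RNA spans the splice donor. The first is Gm12224-201 on chromosome 11, 54340553 to 54340612, minus strand, with the facing coding sequence of Acsl6, 54340553 to 54340592, plus strand. The second is Gm16536-201 on chromosome 9, 45857209 to 45857268, minus strand, facing Bace1, the beta-secretase, at 45857209 to 45857248, plus strand (mm10, GENCODE M21).
Gm12224: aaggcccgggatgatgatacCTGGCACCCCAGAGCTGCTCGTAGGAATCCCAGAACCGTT
Acsl6: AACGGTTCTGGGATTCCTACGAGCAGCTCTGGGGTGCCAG
Gm16536: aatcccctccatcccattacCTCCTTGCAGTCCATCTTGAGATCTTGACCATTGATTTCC
Bace1: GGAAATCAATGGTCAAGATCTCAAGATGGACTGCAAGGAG

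The promoters ranged widely in CpG content, without a gap between high and low, and 4 of them, chosen to differ, are shown with each CG in capitals. The 4 are not the extremes, and 1810021B22Rik, not shown, held 43 CG. None of the 4 has an opposite coding start within 1 kb. Each is 300 bases from RefSeq (GRCm38.p6), 250 of them before the start and 50 after it, and none overlaps an exon of a coding gene. Atcayos (chr10:81194441-81194740, plus strand) holds 20 CG and one TATAAA, and Sox6os (chr7:116031729-116032028, plus strand) holds 26 CG. Airn (chr17:12741061-12741360, plus strand) and Uckl1os (chr2:181578230-181578529, plus strand) hold 3 CG each. Airn holds TATAAA on the other strand, and Uckl1os has 4 E-boxes, the CANNTG motif bound by factors such as MyoD.
Atcayos: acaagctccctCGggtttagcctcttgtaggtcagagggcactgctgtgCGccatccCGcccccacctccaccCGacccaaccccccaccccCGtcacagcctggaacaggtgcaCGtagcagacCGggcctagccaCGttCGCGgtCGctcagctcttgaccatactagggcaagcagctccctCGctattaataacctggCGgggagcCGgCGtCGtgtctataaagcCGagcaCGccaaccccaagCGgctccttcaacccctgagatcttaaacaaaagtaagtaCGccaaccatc
Sox6os: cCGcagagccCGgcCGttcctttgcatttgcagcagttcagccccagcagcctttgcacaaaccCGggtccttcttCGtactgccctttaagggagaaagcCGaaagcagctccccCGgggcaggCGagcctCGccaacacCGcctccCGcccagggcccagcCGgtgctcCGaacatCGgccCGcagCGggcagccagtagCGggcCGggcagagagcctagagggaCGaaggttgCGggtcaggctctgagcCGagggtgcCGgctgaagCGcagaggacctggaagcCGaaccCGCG
Airn: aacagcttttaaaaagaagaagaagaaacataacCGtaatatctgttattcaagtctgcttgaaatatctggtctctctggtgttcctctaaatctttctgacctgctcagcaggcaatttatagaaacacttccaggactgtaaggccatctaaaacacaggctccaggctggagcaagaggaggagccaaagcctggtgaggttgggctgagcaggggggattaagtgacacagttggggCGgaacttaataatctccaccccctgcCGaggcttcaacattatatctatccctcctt
Uckl1os: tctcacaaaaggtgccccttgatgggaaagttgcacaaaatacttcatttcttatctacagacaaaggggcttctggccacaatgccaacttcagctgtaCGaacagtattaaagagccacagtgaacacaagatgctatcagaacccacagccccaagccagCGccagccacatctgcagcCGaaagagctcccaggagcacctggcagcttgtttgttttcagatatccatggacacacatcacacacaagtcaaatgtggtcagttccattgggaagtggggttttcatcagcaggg

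Most antisense genes were not seen in this muscle. Of the 2948, 1883 (63.9%) had no read in either library, and 2.75% reached 1 TPM in both, against 46.5% of 22028 protein-coding genes, 2.27% of 5854 lincRNA genes and 8.95% of 190 bidirectional promoter lncRNA genes. The 81 genes summed to 423.81 TPM in animal 1 and 440.66 TPM in animal 2, which was 73.8% and 75.8% of the TPM of all antisense genes. They held 0.0347% and 0.0350% of gene counts. Their median level was 2.17 TPM, the mean of both animals, and 12 genes were at 10 TPM or more, 36 between 2 and 10, and 33 below 2. The 5 highest held 37.7% of their summed TPM and the 10 highest 54.2%. Read support was thin, with a median of 80 reads per gene in animal 1 and 81 in animal 2 and a range of 10 to 2704.

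The libraries held 45014834 and 47771283 expected gene counts, and 11889 and 11425 genes at 1 TPM or more. Both animals had all 24 muscle fibre markers at 1 TPM or more and none of 4 liver and 3 brain markers. The animals differed in other cell type markers. Slow fibre markers summed to 929 TPM in animal 1 and 3980 in animal 2 and were higher in animal 2 in 8 of 8, whereas adipocyte markers summed to 799 and 108 TPM and were higher in animal 1 in 9 of 9. Schwann cell markers, from the cells that sheathe nerve, summed to 247 and 33.7 TPM (8 of 8 higher in animal 1) and tenocyte markers, from tendon, to 120 and 215 TPM (6 of 6 higher in animal 2). Macrophage markers summed to 55.45 and 34.98 TPM (6 of 6 higher in animal 1). Other lists were mixed. Higher in animal 1 were 4 of 6 endothelial, 4 of 5 pericyte and smooth muscle, 4 of 7 fibroblast and 1 of 5 satellite cell markers. In bulk tissue, fewer cells of a type and less RNA per cell cannot be told apart.

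The highest antisense gene by the mean of both animals was Gm12224 (ENSMUSG00000085888.7, chromosome 11, 54340369 to 54353479, minus strand), with 43.2 TPM in animal 1 and 39.0 TPM in animal 2. It lies inside Acsl6, an acyl-CoA synthetase gene for long-chain fatty acids, which stood at 7.77 and 7.86 TPM, and both animals had more antisense than sense RNA. Atcayos (ENSMUSG00000085779.1, chromosome 10, 81194609 to 81210877, plus strand) stood at 39.2 and 40.2 TPM, with 2476 and 2704 reads. The gene it is named after, Atcay, which codes for the brain protein caytaxin, had 0.01 TPM in each animal. Atcayos also runs across Nmrk2, a nicotinamide riboside kinase gene of muscle, which had 10.3 and 21.4 TPM. Between animals, Atcayos differed by a log2 of 0.15 and Nmrk2 by 1.17, both higher in animal 2. Gm11716, within Pitpnc1, a gene for a phosphatidylinositol transfer protein, was at 31.9 and 37.2 TPM, close to Pitpnc1 at 33.4 and 40.9 TPM. Uckl1os was at 12.7 and 11.3 TPM, close to Uckl1 (a uridine-cytidine kinase-like gene) at 8.25 and 10.4 TPM, and Gm15417 at 15.9 and 17.2 TPM exceeded Zbtb7b, a transcription factor gene, at 10.1 and 8.18 TPM.

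**Figure D1:**
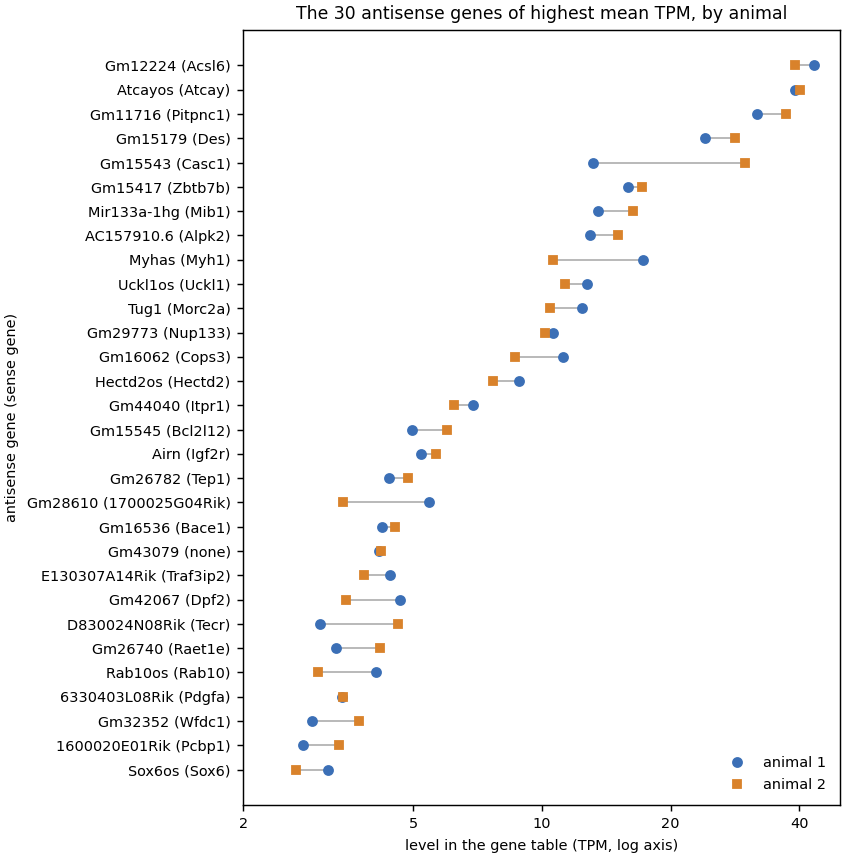
Level of the 30 antisense genes of highest mean TPM, with animal 1 as a circle and animal 2 as a square on a log axis and the sense gene in parentheses. Gm12224, Atcayos, Gm11716 and Gm15179 lead by mean TPM, and Gm15543 (13.2 and 29.8 TPM) and Myhas (17.2 and 10.6 TPM) stand out for the gap between the animals.

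The sense gene was a marker of muscle fibres for 2 of the 81, Myhas and Gm15179. Myhas (chromosome 11, 67211256 to 67237573, minus strand) starts 456 nt from the start of Myh4, the fast IIb myosin heavy chain gene, and ends across Myh1, the IIx heavy chain gene. Animal 1 had 17.2 TPM and animal 2 had 10.6 TPM, where Myh1 was at 2037 and 2108 TPM and Myh4 at 5755 and 5252 TPM. Gm15179 (chromosome 1, 75368212 to 75375012, minus strand) starts 285 nt from Speg, which codes for a striated muscle kinase, and overlaps the end of Des, the gene for the intermediate filament desmin. It was at 24.0 and 28.3 TPM, with Speg at 89.1 and 96.2 TPM and Des at 840 and 730 TPM. Other genes of interest in muscle are given here after their values were seen, and do not form a group. Gm29773, which overlaps the nuclear pore gene Nup133, starts 1522 nt from Acta1, the skeletal actin gene, and stood at 10.6 and 10.2 TPM. Mir133a-1hg, on chromosome 18 within Mib1, is the host of Mir133a-1 and Mir1a-2, which give muscle microRNAs, and was at 13.6 and 16.3 TPM with Mib1 at 11.6 and 9.30 TPM. Its level is that of the annotated host exons, not of the microRNAs. On the same chromosome AC157910.6 (13.0 and 15.0 TPM) and AC157910.1 (1.61 and 2.99 TPM) lie within Alpk2, a kinase gene, at 18.7 and 26.6 TPM. The level of AC157910.6 rests on 94 and 156 reads, with a mean of 78.8% of its TPM on AC157910.6-202, of 201 nt. In the second transcript table, described below, that transcript held 0% and the gene stood at 4.08 and 8.36 TPM. Sox6os, inside Sox6, the gene for a factor that represses slow fibre genes, was at 3.15 and 2.65 TPM with Sox6 at 54.1 and 66.8 TPM.

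Of a list of 36 noncoding RNAs with described roles, 12 are antisense genes of this annotation and 2 of these were above the threshold. Airn was at 5.22 and 5.66 TPM (182 and 201 reads), and Igf2r at 16.4 and 16.8 TPM. The alleles of the cross were not separated here. Foxo6os, named after the Foxo6 transcription factor gene, was at 2.48 and 2.10 TPM, and Foxo6 at 3.09 and 3.60 TPM. Of well-known genes off the list, Tug1, which overlaps the start of Morc2a, was at 12.4 and 10.4 TPM with 1876 and 1741 reads. Gt(ROSA)26Sor, at the locus widely used for transgenes, was at 2.10 and 2.16 TPM, and Rab26os, the host of the small nucleolar RNA gene Snord60, was at 1.41 and 1.09 TPM on 13 and 10 reads.

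The expressed antisense genes more often started beside a coding gene of the other strand. An opposite coding start lay within 1 kb for 30 of 81 (37.0%), against 591 of 2867 other antisense genes (20.6%), and within 100 nt for 8 (9.88%) against 111 (3.87%). Among the closest are 0610040B10Rik, 9 nt from Zdhhc4, Ccdc142os, 14 nt from Mrpl53, 6230400D17Rik, 22 nt from Chchd1, and Gt(ROSA)26Sor, 32 nt from Setd5. The median distance was 4516 nt, against 15221 nt. Their exons were also longer in sum (median 1291 nt against 909 nt), and single-exon genes were 11.1% against 6.21%. These differences are between genes chosen by level and the rest, and are given without a test.

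**Figure D2:**
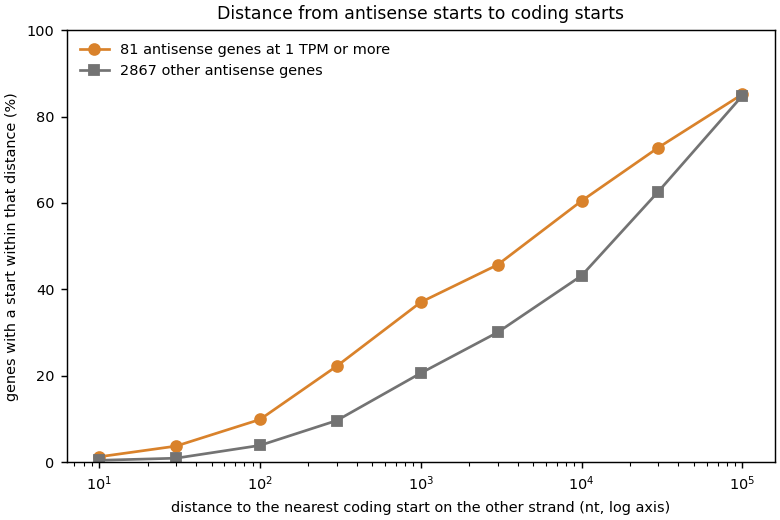
Share of antisense genes with a coding start on the other strand within each distance (log axis), for the 81 expressed genes (circles) and the 2867 others (squares). The shares are 37.0% and 20.6% at 1000 nt and meet at 85.2% and 84.9% at 100000 nt.

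Genes that started near a coding start more often had a promoter above the CpG limit used here. RefSeq promoters matched 49 of the 81 by symbol, 29 with a start within 100 nt of the GENCODE start. Of these 29, 9 of 11 (81.8%) with an opposite coding start within 1 kb had a CpG observed over expected ratio of 0.6 or more, against 3 of 18 (16.7%) further away and 35.8% of all 32841 promoters. Atcayos and Sox6os, shown above, are among those 3. Over all 49, the shares were 16 of 19 (84.2%) and 6 of 30. Windows near a coding start also hold bases of the coding gene's own promoter. An E-box, searched as CANNTG, which reads the same on both strands, was in 72.4% of the 29, 59.2% of the 49 and 72.3% of all promoters of 300 bases. TATAAA on either strand was in 13.8% of the 29, 12.2% of the 49 and 13.6% of all. The E-box share thus depends on which starts are taken, and the limit of 100 nt was set after values were seen.

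A sense gene was assigned to 79 of the 81, by symbol for 17 and by overlap of gene bodies for 62, and Gm43079 and Gm13375 had none. The pairs hold 77 sense genes, since Fyn and Alpk2 each have 2 antisense genes. Of the pairs, 31 antisense genes lay inside the sense gene, 23 overlapped it head to head, 20 tail to tail, 2 surrounded it, and 3 did not overlap. The antisense gene ran across several coding genes in 14. Exons faced exons in 53, over a median of 279 nt (10 to 2617 nt), and coding sequence was covered in 30. For 50 of these 53 the deposited posterior SD of the antisense count was 0 in both libraries. A stranded library profile is named with the spike-ins, the strand setting of the counting is not given in the sources used here, and how far sense reads enter the antisense counts was not tested.

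The sense gene was usually the higher partner, and expressed coding genes in general stood higher than these antisense genes. Sense genes of the pairs had a median of 7.565 TPM, beside 7.75 TPM for all protein-coding genes at 1 TPM or more in both libraries. The antisense genes of the pairs had a median of 2.17 TPM. Whether the ratios differ from those to unpaired coding genes was not tested. Antisense TPM was below sense TPM in both animals in 54 pairs, above it in both in 23, and mixed in 2. The median log2 ratio of antisense over sense TPM, with 0.1 added to each, was −1.27 (2.42-fold in favour of the sense gene), with −1.58 in animal 1 and −1.05 in animal 2. In 68 pairs the mean ratio exceeded 2 SD of the 2 animals, 51 with less antisense and 17 with more. That SD rests on 2 values, and the minimum of 1 TPM fixes the direction where the sense gene is lower than that. Across the 79 pairs, which share libraries, the levels had a Pearson's r of 0.21 and a Spearman's rho of 0.31, as a description. Both were taken on log2 of mean TPM plus 0.1. Head to head pairs had a median of −1.92 (23 pairs, sense median 9.12 TPM), inside pairs −1.27 (31 pairs, 10.4 TPM) and tail to tail pairs −0.23 (20 pairs, 3.43 TPM). Tail to tail pairs went both ways, 10 lower and 9 higher in both animals, with quartiles at −1.83 and 1.44, and they hold both the highest and the lowest ratio of all pairs.

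**Figure D3:**
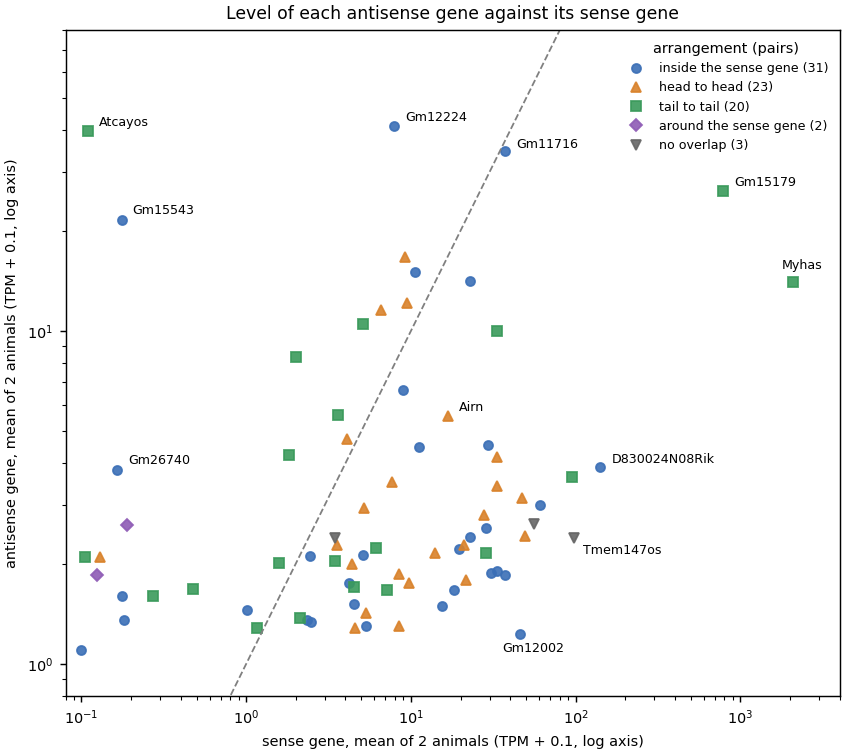
Mean TPM of each antisense gene against its sense gene (79 pairs), both on log axes with 0.1 added, with a symbol for each arrangement and a dashed line at equality. Most points lie right of the line, Myhas and Gm15179 furthest right, while Atcayos and Gm15543 stand at the left with sense genes near 0.

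The 17 antisense genes named after a coding gene were spread on both sides of it, 9 of them lower in both animals. Hectd2os, tail to tail with the ubiquitin ligase gene Hectd2, had 8.82 and 7.68 TPM against 1.85 and 1.97 TPM, so that it was the higher gene in both animals. Rab10os had 4.09 and 2.99 TPM against 93.2 and 97.6 TPM for Rab10, a small GTPase gene of membrane traffic. Map2k3os, whose start lies 166 nt from that of the kinase gene Map2k3, had 2.83 and 2.22 TPM against 62.6 and 48.8 TPM. Zfp335os had 2.40 and 1.96 TPM against 3.49 and 3.46 TPM for the zinc finger gene Zfp335, the closest of these 4 pairs. Junos, over the start of the transcription factor gene Jun, had 2.47 and 1.87 TPM against 20.4 and 21.2 TPM.

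Some genes begin beside 1 coding gene and end over another. Gm16062 starts 64 nt from Flcn, the folliculin gene, and ends over Cops3, a signalosome subunit gene. It had 11.2 and 8.66 TPM, with Flcn at 13.7 and 16.6 TPM and Cops3 at 34.1 and 32.2 TPM. E130307A14Rik starts 111 nt from Rev3l, a DNA polymerase gene, and had 4.41 and 3.84 TPM, with Rev3l at 10.3 and 9.69 TPM and its overlap partner Traf3ip2 at 1.46 and 1.97 TPM.

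The 5 lowest ratios had sense genes at 46.1 to 2072 TPM. Myhas over Myh1 stood at −7.25 ± 0.53 (SD, n = 2, log2). Tmem147os over Tmem147, a membrane protein gene of the endoplasmic reticulum, stood at −5.37 ± 0.30, on 2.77 and 1.81 TPM against 102 and 91.5 TPM. That pair was set by symbol and does not overlap, with starts 39 nt apart. The coding gene that Tmem147os does overlap, Gapdhs, had 0 and 0 TPM, so the low ratio depends on the choice of partner. Gm12002 over Cobl, an actin nucleator gene, stood at −5.23 ± 0.19, D830024N08Rik over Tecr, an enzyme gene of long-chain fatty acid synthesis, at −5.20 ± 0.31, and Gm15179 over Des at −4.90 ± 0.31. Each of these 5 lay below its partner in both animals.

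In 11 pairs the sense gene was below 0.5 TPM, where the threshold of 1 TPM on the antisense gene makes it the higher of the pair. Beside Atcayos (8.50 ± 0.03), these included Gm15543 over Casc1 (6.91 ± 0.17), at 13.2 and 29.8 TPM against 0.02 and 0.13 TPM. In the second transcript table, described below, Gm15543 had 0.71 and 5.68 TPM and the ratio was 3.29. Gm26740, within the NKG2D ligand gene Raet1e, had 3.29 and 4.18 TPM against 0.09 and 0.04 TPM (4.55 ± 0.55). The gene 1810021B22Rik had 1.92 and 2.06 TPM against 0.00 and 0.01 TPM for the channel gene Panx2 (4.32 ± 0.03), and Hoxd3os1 had 1.48 and 2.52 TPM against 0.06 and 0.00 TPM for Hoxd3 (4.01 ± 1.00). Ratios over sense genes near 0 depend on the 0.1 added. The others were Gm15510, Gm16008, Ccdc142os, Etohd2, Rab26os and Plet1os, with 1.00 to 3.09 TPM. Some of the 11 also run across another coding gene that was expressed. Trabd (13.7 and 12.05 TPM) lay above 1810021B22Rik in both animals, as did Hoxd8 (6.16 and 17.58 TPM) above Hoxd3os1. Mrpl53 (43.05 and 43.21 TPM) likewise lay above Ccdc142os. Zfp580 (1.58 and 1.08 TPM) lay above Gm15510 in animal 1 only, and Nmrk2 lay below Atcayos in both animals.

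Of the 45 genes with several transcripts, 30 had a transcript with over 50% of the TPM and 4 had one with over 90%, and 33 had the same leading transcript in the second transcript table. Gm12224-201 held 95.3 ± 1.40% (SD, n = 2) and Myhas-203 held 85.0 ± 2.07%, whereas Atcayos was spread over Atcayos-202 (40.8 ± 3.58%), Atcayos-203 (30.7%) and Atcayos-201 (28.5%). Uckl1os-201 held 68.6 ± 4.55% and Airn-201 41.4 ± 1.19%. Tug1-203 held 42.3 ± 7.18% but 3.40% in the second table, so its leading transcript is not settled by these files.

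Between the animals the 56 genes that averaged 50 counts or more lay close to no change. Their median log2 ratio of animal 2 over animal 1, on counts scaled with edgeR's TMM factors, was 0.09, against 0.02 for all 12304 genes tested, with 35 higher in animal 2 and 21 in animal 1. Counting intervals excluded 0 for 19 genes, 15 higher in animal 2 and 4 in animal 1, and these intervals cover counting error only. They were not worked out for all 12304 genes, so whether 19 of 56 is unusual cannot be said. A 2-fold difference or more was found for 3 genes higher in animal 2 (5.36%), where the background was 0.983% of genes, and for 0 genes higher in animal 1, where it was 3.10%. The count higher in animal 2 was 1 in the second table, with DESeq2 size factors and with a prior count of 5, and library size alone gave 1 gene in each direction. With 1 library per animal the difference between the animals has no replicate, so no test was run.

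**Figure D4:**
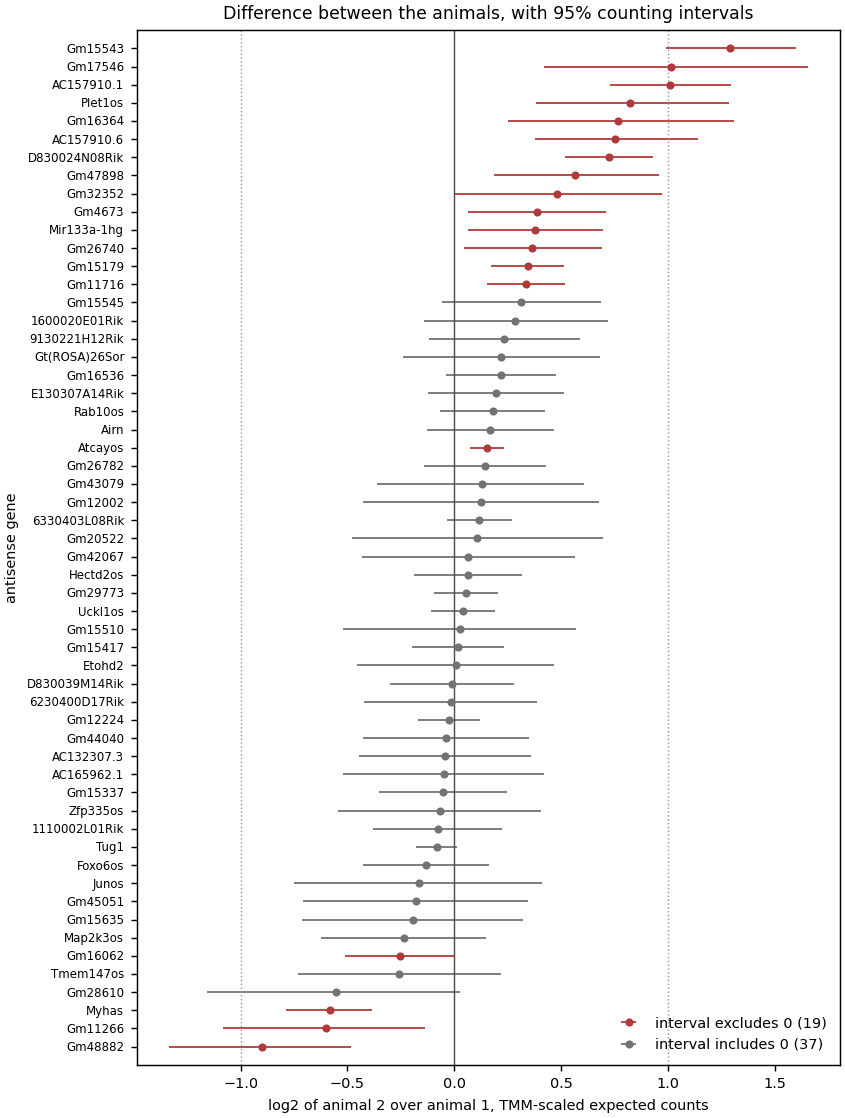
Log2 ratio of animal 2 over animal 1 for the 56 antisense genes averaging 50 counts or more, with 95% exact counting intervals and dotted lines at 2-fold. Red marks the 19 whose interval excludes 0, led by Gm15543 at 1.29 and by Gm48882 at −0.90 at the other end.

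The gene furthest apart was Gm15543. It had 130 reads in animal 1 and 313 in animal 2 (1.29, interval 0.99 to 1.60), but 2 and 17 reads in the second table. Gm17546, inside the scramblase gene Ano6, had 35 and 70 reads (1.01, 0.42 to 1.65), and AC157910.1, inside Alpk2, had 157 and 311 (1.01, 0.73 to 1.30). Plet1os (0.82) followed, then Gm16364 (0.77), which lies inside the kinase gene Fyn. Gm48882, head to head with Cradd, had 137 and 72 reads (−0.90, −1.34 to −0.48), Gm11266, inside Nfib, 99 and 64 (−0.60, −1.08 to −0.14), and Myhas 513 and 336 (−0.58, −0.79 to −0.38). Gm28610 (63 and 42 reads) followed at −0.55, interval −1.16 to 0.03, and Tmem147os (85 and 69.8 reads) at −0.26, interval −0.73 to 0.22. The slow fibre, adipocyte, Schwann cell, tenocyte and macrophage markers given above differed between the same animals, and their part in these differences was not tested.

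An antisense gene and its sense gene shared the direction of this difference in 25 of 48 pairs in which both genes averaged 50 counts or more. Of these, 17 had both higher in animal 2 and 8 had both lower. In 10 pairs only the antisense gene was higher in animal 2, and in 13 only the sense gene. The split was thus near even, and the share for unpaired genes was not worked out. The relation across the 48 pairs, which share libraries and scaling, had r 0.30 and rho 0.19, as a description. Gm48882 and Cradd were both lower in animal 2 (−0.90 and −0.66) and Gm11716 and Pitpnc1 both higher (0.33 and 0.34). Myhas was lower in animal 2 (−0.58) where Myh1 was slightly higher (0.15) and Myh4 level (−0.02). Near Hoxd3os1 (1.10, on 23 and 49 reads), the gene Hoxd8 had 6.16 and 17.6 TPM (1.58), and Hoxd3 itself had 5.44 and 0 reads.

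The second transcript table, made from reads rather than from the transcriptome alignment, gave higher TPM for most of the 81. Its median log2 ratio over the gene table was 0.63, beside 0.55 for all 11172 genes at 1 TPM or more, and 78 of the 81 stayed at 1 TPM or more. The levels of the 81 were alike in rank (rho 0.90) and less so in value (r 0.84). Relative to the median gene, 2 genes were 2-fold or more higher in the second table (background 0.877%) and 5 were 2-fold or more lower (background 4.39%). Higher were Gm15756, with 1.30 and 1.18 TPM against 4.73 and 5.21 TPM in the second table, and Junos, at 2.47 and 1.87 TPM against 8.27 and 6.03 TPM. Next, within 2-fold of the median gene, came Gm26881 (1.82 and 1.49 against 4.19 and 4.68 TPM), Gm26782 (4.39 and 4.85 against 11.9 and 11.6 TPM) and Gm44040 (6.91 and 6.22 against 16.2 and 13.7 TPM). Lower were 2900060B14Rik (1.10 and 2.03 against 0 and 0), Gm15543 (13.2 and 29.8 against 0.71 and 5.68), Rab26os, AC157910.6 and Mir133a-1hg (13.6 and 16.3 against 6.97 and 9.16).

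**Figure D5:**
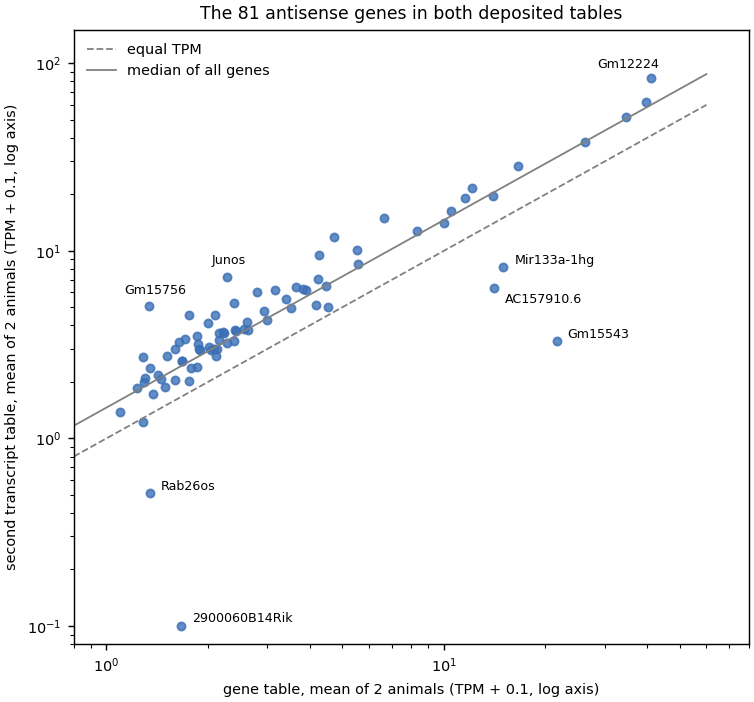
TPM of the 81 genes in the second transcript table against the gene table, means of both animals on log axes with 0.1 added. The dashed line marks equal TPM and the solid line the median of all genes, along which most points lie, with 2900060B14Rik, Rab26os and Gm15543 below it.

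The 2 tables therefore differ on Gm15543, which is the fifth gene by level in the gene table and the one furthest apart between animals. Next to the threshold, the genes just inside were Etohd2 (1.00 and 1.00 TPM), Gm12002 (1.07 and 1.19 TPM) and Gm16364 (1.09 and 1.73 TPM). Just outside were Gm17690 (0.99 and 1.27 TPM), Gm20400 (0.99 and 1.77 TPM) and Gm20457 (1.55 and 0.99 TPM). The lower library of these 6 genes spans 0.99 to 1.09 TPM, so that the threshold falls in a run of close values.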

How the data were processed

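Total RNA of gastrocnemius was measured in 2 libraries of 1 group. The authors deposited, per library, a gene table and a transcript table with expected counts and TPM in the layout that RSEM writes, including a percent of the gene's TPM per transcript, per the file headers. A second transcript table has the kallisto layout, with estimated counts and TPM, per the file headers. Lists deposited with the files give the build as mm10 and the annotation as GENCODE M21, and include plus- and minus-strand signal tracks. The strand setting of the counting is not given in the sources used here. Reads of the cross were counted on mm10, so CAST reads that differ from it can be missing. The posterior SD of each count is the authors' value, per the file headers.

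The 81 genes are all genes whose transcripts are of type antisense with 1 TPM or more in both gene tables. The 26248 rows with no gene name held 3 and 5 counts (6.63e-06% and 1.04e-05%) and stayed out of library sizes with the spike-ins. Sense genes came from the symbol, otherwise from the opposite coding gene with the longest overlap, and older names counted only within 10 kb. Pair ratios are log2 of TPM plus 0.1. Between animals, expected counts were rounded for the scaling factors, scaled with edgeR's TMM factors and given a prior count of 0.5, over genes averaging 50 counts or more. Intervals are exact binomial (Clopper-Pearson) at 95%. On simulated counts for 55536 genes between animal 1 and animal 2, a log2 change of 2 was found for 99.5% of the changed genes, and 2.16% of unchanged genes passed 2-fold. The simulation assumed a single spread for all genes and changes well past 2-fold. It checks the code, and 2.16% is not an error rate for these libraries.

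The members, lists and rules were chosen with earlier results of these data known. Named genes were the 10 of highest TPM, the 10 highest whose symbol names a coding gene, the 5 extremes of pair ratio, animal ratio and table ratio, the 3 genes on each side of the threshold, members of the list of described roles and those over marker genes. Others were named after their values were seen, as were the promoters and exons shown and the limit of 100 nt on promoter starts. Alternatives used other TPM minimums, pseudocounts, prior counts and filters, DESeq2 size factors, spike-in scaling, library size alone, the second table, other sense gene rules and each library left out. Software was Python 3.11.15 with pandas 2.3.3, numpy 2.4.6, matplotlib 3.10.9 and scipy 1.17.1, and R 4.3.3 with DESeq2 1.42.0 and edgeR 4.0.16.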

Additional observations from a re-analysis of the deposited data

How the results depend on the processing

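The number of antisense genes that passed was 138 at a minimum of 0.5 TPM, 37 at 2 TPM and 132 in the second transcript table, and 94 to 98 with each library left out, against 81. TPM in the second table was 1.46-fold higher for the median of all 11172 genes compared, so 1 TPM is a looser limit there. How much of the rise to 132 comes from that was not tested. The median log2 ratio of antisense over sense TPM kept its sign under every alternative run. It was −3.15 on expected counts, which are not per length, −0.53 for the 17 pairs named by symbol, −0.85 with the opposite gene of any type and −1.84 for pairs whose sense gene is at 1 TPM or more, against −1.27. It ranged from −1.58 to −1.05 with each library left out, and an alternative chosen after seeing the data, the opposite coding gene of highest TPM, gave −1.59. The number of genes 2-fold apart between animals was 1 with DESeq2's size factors, 1 in the second table and 1 with a prior count of 5, against 3. Scaling by library size moved the median of all genes to −0.10 and that of the antisense genes to −0.02, and spike-in scaling moved them to 0.21 and 0.29. Because spike-in scaling shifts all genes alike, more pairs share a sign under it by construction, 37 of 48 where the main scaling gave 25. The median log2 ratio of the tables was 0.66 with 0.01 added and 0.51 with 1 added, and −0.039 as a ratio of counts, where all genes were at 0.11, against 0.63. It was 0.64 to 0.65 with each library left out. The cause of the changes in the counts of genes 2-fold apart and in the table ratio was not tested. No paired analysis was possible because there is 1 group. Genes with few reads limit every ratio given, and 25 of the 81 had a mean count under 50.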

Other observations

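Antisense genes with described roles that fell below the threshold included Kcnq1ot1, the RNA that silences a cluster of imprinted genes in cis. It had 0.64 and 0.77 TPM but 2237 and 2881 reads, close to the numbers for Atcayos, and TPM is per length. In the second transcript table it stood at 1.07 and 1.24 TPM. Dnm3os, the host of microRNAs, had 0.35 and 0.30 TPM on 102 and 74 reads, Emx2os had 0.10 and 0.25 TPM on 19 and 50 reads, and Nespas had 0 and 2 reads.

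Further antisense genes passed in 1 library alone, 13 in animal 1 and 17 in animal 2. Gm44949 had 0.37 and 1.16 TPM on 19 and 63 reads, Gm47547 had 0.76 and 1.84 TPM, and 2610016A17Rik had 3.35 and 0.81 TPM on 49 and 13 reads. In the second transcript table, where 1 TPM is the looser limit, 54 genes outside the 81 reached 1 TPM in both libraries. Of these, 20 are among those that passed in 1 gene table, and 34 passed in neither gene table. Of the 54, 7 had no read in either gene table. The largest of the 7 was Gm48765, at 13.1 and 12.7 TPM in the second table. Gm47738 stood at 9.32 and 8.86 TPM there, with 1 and 0 reads in the gene tables.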
